A study of Mus musculus with 12 samples.

Results

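The aldehyde dehydrogenases described here are 10 genes, Aldh1a1, Aldh1a7, Aldh1a2, Aldh1a3, Aldh1b1, Aldh2, Aldh3a2, Aldh5a1, Aldh7a1 and Aldh9a1, found by their exact symbols among the 23079 genes of a table of read counts. The series compared RNA of midbrain dopaminergic neurons of 2 regions, the pars compacta of the substantia nigra (SNpc) and the ventral tegmental area (VTA), of C57BL/6 mice. The labels name the samples TRAP, taken here to mean that ribosomes carrying a tag, made in a chosen cell type, were pulled down together with the RNA bound to them (translating ribosome affinity purification). The sources used here do not give the promoter that drives the tag, any treatment, the age and sex of the mice or how many mice a library holds. All libraries share the strain and the purification and differ by region alone, as far as the labels say. Each of 2 pairs of identical columns was counted as 1 library, since their columns differed by less than sampling noise (0 genes at different counts), and 5 SNpc libraries (1, 2, 3, 4 and 6) and 5 VTA libraries (1, 2, 4, 5 and 6) remained. Whether a library stands for an animal of its own is not stated, so the p-values reflect the spread among these libraries alone, and that spread may be technical.

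Aldehyde dehydrogenases oxidise reactive aldehydes to carboxylic acids with NAD or NADP as the electron acceptor. In dopaminergic neurons, monoamine oxidase turns cytosolic dopamine into the aldehyde DOPAL, which is toxic and is cleared by the cytosolic enzyme of Aldh1a1 and the mitochondrial enzyme of Aldh2, or is reduced to an alcohol by aldo-keto and aldehyde reductases. Members of the Aldh1a group also make retinoic acid from retinaldehyde, and the other members act in GABA breakdown, lysine breakdown, carnitine synthesis and the oxidation of fatty aldehydes. Aldh1a1 is widely used as a marker of a ventral set of SNpc neurons in the mouse.

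Total counts ran from 62356964 to 81393907 per library. All 4 genes of dopaminergic identity were abundant and higher in SNpc, as log2 fold changes of 0.57 for Th, 0.77 for Slc18a2, 0.80 for Ddc and 1.07 for Slc6a3 (SNpc minus VTA; Benjamini-Hochberg adjusted p from 3.01e-05 to 0.00246 with edgeR). Markers of other cells were present in every library, and no marker was at 0 in all of them. As read counts scaled to library size (CPM, with library sizes adjusted by the trimmed mean of M values, TMM), the sums of 12 astrocyte markers ran from 464 to 754 CPM in SNpc libraries and from 678 to 854 in VTA libraries. Those of 10 oligodendrocyte markers ran from 289.6 to 1408 in SNpc and from 727 to 913 in VTA, and those of 8 markers of GABAergic and glutamatergic neurons from 109.7 to 446 in SNpc and from 278 to 424 in VTA. SNpc library 4 was the highest SNpc library in all 6 marker lists. Microglial markers summed to 46.0 to 70.7 CPM in SNpc and 55.8 to 75.2 CPM in VTA. In bulk samples such as these, fewer cells of a type and less RNA per cell cannot be told apart.

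Aldh1a1 and Aldh1a7 are neighbours and close relatives, which bears on how far their reads can be told apart. On the mm10 build, Aldh1a1 lies on the plus strand at chr19:20492715-20643465 and Aldh1a7, a paralog found in rodents, on the minus strand at chr19:20692953-20727562. Their 3′ ends face each other across 49.5 kb. Both have coding regions of 1503 bases that are 91.6% identical, with 126 differing bases, whereas the other pairs of members ranged from 53.6% to 70.1% identity. The longest run shared by both coding regions is 100 bases, the read length given in the labels, and it is shown because a read lying exactly there would belong to either gene. It occupies coding positions 757 to 856, counted from the A of the start codon.
Aldh1a1 and Aldh1a7: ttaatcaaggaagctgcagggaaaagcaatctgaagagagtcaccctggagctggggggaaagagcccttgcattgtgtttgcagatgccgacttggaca
The stretch of 60 coding bases where they differ most, at positions 317 to 376, is shown beside it, with the 16 differing bases in capitals, because reads there separate the genes readily.
Aldh1a1: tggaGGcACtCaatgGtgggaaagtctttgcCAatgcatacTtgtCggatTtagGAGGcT
Aldh1a7: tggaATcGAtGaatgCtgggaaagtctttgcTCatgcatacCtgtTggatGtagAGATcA
Of all 100-base windows of their transcripts, 1 was exactly shared. Allowing 2 mismatches, 167 windows were shared, which is 7.39% of the windows of Aldh1a1 and 8.49% of those of Aldh1a7. The remaining windows differ by more, and the sources used here do not say how the authors' counting treated reads that fit both genes.

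The likeness extends upstream of the genes. RefSeq lists a pair of starts for Aldh1a1, and the 250 bases before the downstream start are shown with those before the start of Aldh1a7. Which Aldh1a1 start was used in these libraries was not tested, nor was any link of this likeness to the region difference. The sequences are RefSeq's (GRCm38.p6), from chr19:20601718-20601967 on the plus strand for Aldh1a1 and chr19:20727557-20727806 on the minus strand for Aldh1a7, and capitals mark aligned runs of at least 12 identical bases.
Aldh1a1: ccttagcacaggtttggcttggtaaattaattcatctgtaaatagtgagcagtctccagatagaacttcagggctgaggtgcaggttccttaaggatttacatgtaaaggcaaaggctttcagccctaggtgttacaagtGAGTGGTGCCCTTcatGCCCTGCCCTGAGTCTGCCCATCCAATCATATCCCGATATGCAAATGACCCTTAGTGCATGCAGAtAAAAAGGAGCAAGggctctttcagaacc
Aldh1a7: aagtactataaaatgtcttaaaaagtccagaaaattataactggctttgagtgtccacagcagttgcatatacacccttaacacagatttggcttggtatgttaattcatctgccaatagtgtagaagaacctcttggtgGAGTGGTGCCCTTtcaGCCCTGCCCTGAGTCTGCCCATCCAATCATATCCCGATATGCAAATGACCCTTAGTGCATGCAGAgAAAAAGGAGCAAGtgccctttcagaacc
In the 100 bases next to the start, 94 were identical (94.0%), and the longest identical run was 65 bases. The 100 bases before the upstream Aldh1a1 start matched those of Aldh1a7 at 30 positions. Both strands of the 8 promoters listed for 7 members (250 bases before to 50 after the start) were searched for TAATCC, a motif bound by Pitx3, AAAGGTCA, bound by Nr4a2, AGGTCA, a nuclear receptor motif contained in AAAGGTCA, and TATAAA. The single match was TATAAA in Aldh1a7, 244 bases before its start. Among all 32851 listed promoters, 7.06% held TAATCC, 1.51% AAAGGTCA, 16.3% AGGTCA and 13.6% TATAAA.

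Of the 10 members, 9 had enough counts to be tested, and 2 of these, Aldh1a1 and Aldh1a7, were higher in SNpc (adjusted p under 0.05 in edgeR's quasi-likelihood test over 15685 genes). Among all genes tested, 17.8% were called higher in SNpc, 20.4% higher in VTA and 38.2% in either direction, so 2 of 9 is near the share of genes in general. With edgeR, 0 members were called higher in VTA, 1 member (Aldh9a1) passed an unadjusted p under 0.05 in that direction, and DESeq2 also called 0. The median log2 fold change was 0.14 over the tested members and -0.04 over all genes. For 3 of the 9 tested members, Aldh1a1, Aldh1a7 and Aldh9a1, the CPM ranges of the regions did not overlap, against 26.6% of all genes tested.

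**Figure D1:**
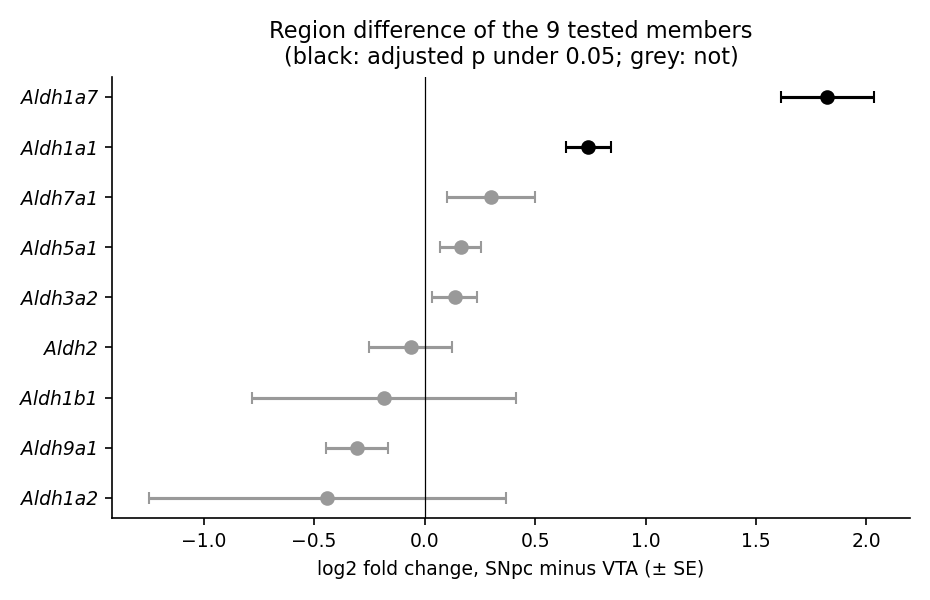
Log2 fold change, SNpc minus VTA, of the 9 tested members (points) with its standard error (bars), from edgeR on 5 libraries per region. Aldh1a7 (1.82) and Aldh1a1 (0.74), in black, are the members past an adjusted p of 0.05, and the other 7 lie between -0.44 and 0.30.

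Among the enzymes of the Aldh1a group, Aldh1a1 was very abundant in both regions and higher in SNpc. It had 3638, 2807, 2773, 2469 and 3288 CPM in SNpc libraries 1, 2, 3, 4 and 6, against 1886, 1771, 1641, 1997 and 1661 CPM in VTA libraries 1, 2, 4, 5 and 6. Every SNpc library lay above every VTA library, the lowest SNpc value being that of library 4, which also held the most RNA of other cells in its region. Aldh1a1 averaged 2995 ± 464 CPM in SNpc and 1791 ± 151 CPM in VTA (SD over n = 5 libraries each), a log2 fold change of 0.74 ± 0.10 (SE; adjusted p = 3.369e-05 with edgeR), or 1.67-fold. These values rest on 103982 to 228735 reads per library. With the mean of astrocyte, oligodendrocyte and microglia markers as a covariate, the log2 fold change was 0.58. With the trend of expression with transcript length and GC content removed per library, it was 0.52 (library scale kept).

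Aldh1a7 was far less abundant and differed more. It had 107, 79.6, 76.3, 57.3 and 72.8 CPM in SNpc libraries 1, 2, 3, 4 and 6, against 15.3, 16.9, 19.0, 29.7 and 30.2 CPM in VTA libraries 1, 2, 4, 5 and 6. The lowest SNpc value, again library 4, was well above the highest VTA value. Aldh1a7 averaged 78.6 ± 18.0 CPM in SNpc and 22.2 ± 7.15 CPM in VTA (SD over n = 5 libraries each), a log2 fold change of 1.82 ± 0.21 (SE; adjusted p = 8.926e-06 with edgeR), or 3.54-fold. With the glial markers as a covariate it was 1.54, and with the length and GC trend removed (library scale kept) it was 1.56.

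**Figure D2:**
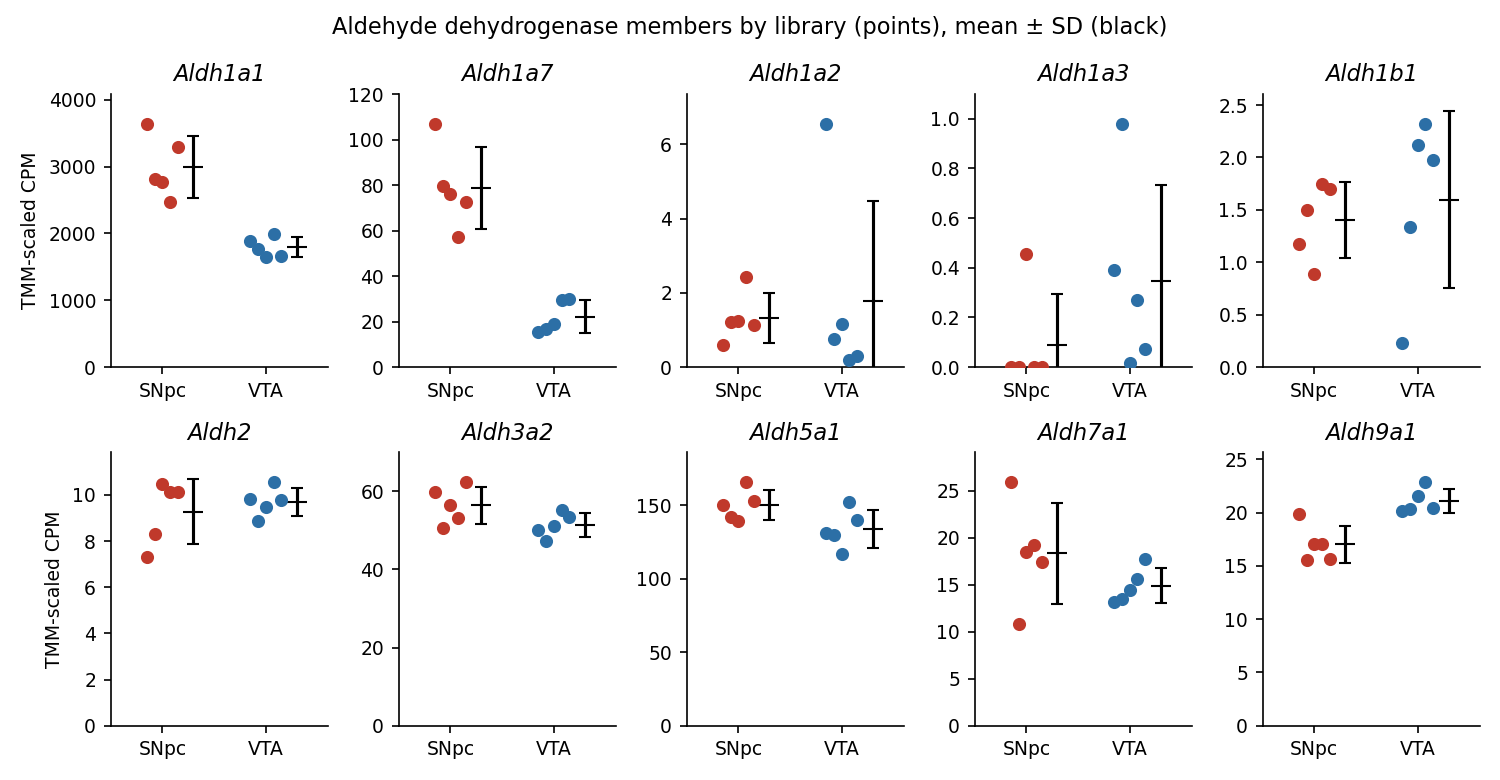
TMM-scaled CPM of the 10 members, 1 panel each, in the 5 SNpc libraries (red, left) and the 5 VTA libraries (blue, right), with the mean ± SD of each region in black; axes start at 0 and cut bars that would pass below it. The regions are apart for Aldh1a1, Aldh1a7 and Aldh9a1, VTA library 1 stands alone for Aldh1a2 at 6.55 CPM, and Aldh1a3 had 0 reads in 4 SNpc libraries.

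Because Aldh1a7 was measured beside a relative with many more reads, its share relative to Aldh1a1 was taken within each library. Per 100 CPM of Aldh1a1, Aldh1a7 had 2.94, 2.84, 2.75, 2.32 and 2.21 CPM in SNpc libraries 1, 2, 3, 4 and 6, against 0.811, 0.957, 1.16, 1.49 and 1.82 CPM in VTA libraries 1, 2, 4, 5 and 6. All SNpc libraries were above all VTA libraries. The mean log2 ratio was -5.26 ± 0.18 in SNpc and -6.35 ± 0.46 in VTA (SD over n = 5 libraries each), a difference of 1.10 (two-sided exact permutation test, p = 0.00794, the smallest that 5 against 5 can give; adjusted p = 0.0139 over the 7 within-library measures compared). How many Aldh1a7 reads came from Aldh1a1 was not tested.

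Aldh1a1 was then set against the dopaminergic genes of the same library. The log2 ratio of Aldh1a1 to the mean of Th, Ddc, Slc6a3 and Slc18a2 was 0.31 ± 0.08 in SNpc and 0.39 ± 0.33 in VTA (SD over n = 5 libraries each), a difference of -0.08 that was within the spread between libraries (two-sided exact permutation test, p = 0.603, adjusted p = 0.704). SNpc libraries ran from 0.20 to 0.38, inside the VTA range of 0.05 to 0.82, where VTA library 2 was highest and VTA library 6 lowest. Relative to the same mean, Aldh1a7 was higher in SNpc by 1.01, at -4.95 ± 0.15 in SNpc and -5.96 ± 0.32 in VTA (SD over n = 5 libraries each; exact permutation p = 0.00794, adjusted p = 0.0139). Every SNpc library was above every VTA library in the ratio of Aldh1a7, and in that of Aldh1a1 the regions overlapped.

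**Figure D3:**
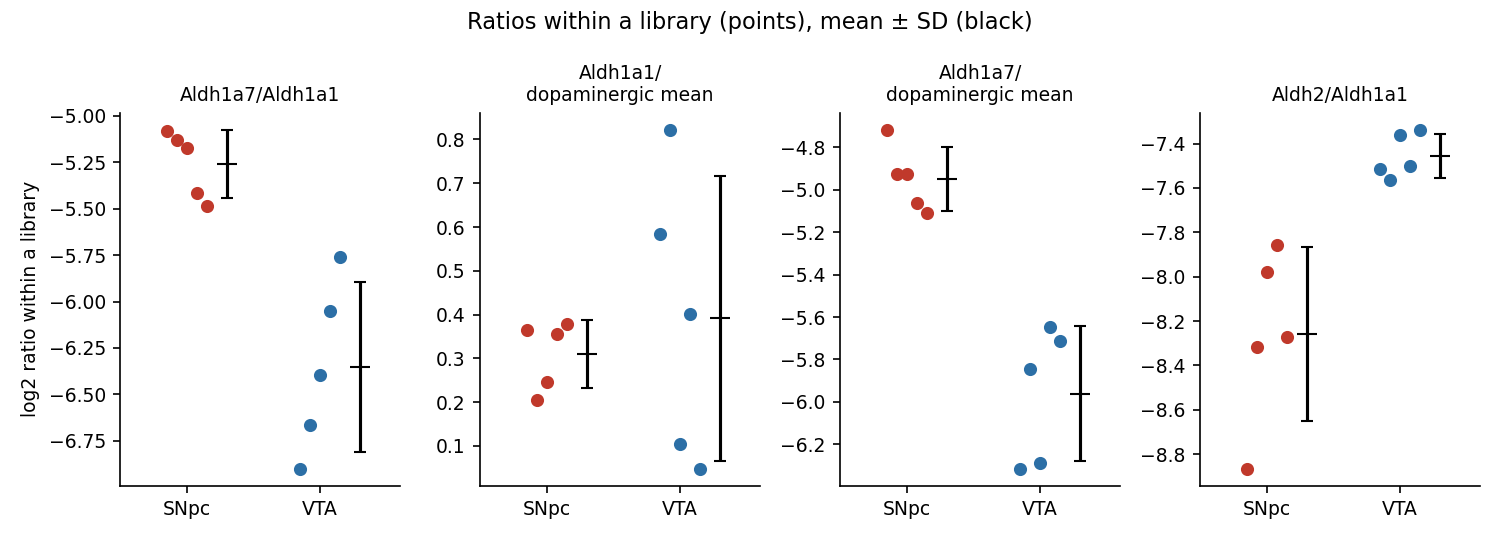
Log2 ratios within a library of Aldh1a7 to Aldh1a1, of Aldh1a1 and of Aldh1a7 to the mean of Th, Ddc, Slc6a3 and Slc18a2, and of Aldh2 to Aldh1a1, for SNpc (red, left) and VTA (blue, right), with mean ± SD in black; each panel has its own axis. The regions are apart in 3 panels, and in the panel of Aldh1a1 to the dopaminergic mean the SNpc values (0.20 to 0.38) lie inside the VTA values (0.05 to 0.82).

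The other retinaldehyde dehydrogenases had few reads. Aldh1a2 (chr9:71215789-71296243) had 0.604, 1.21, 1.25, 2.42 and 1.13 CPM in SNpc libraries 1, 2, 3, 4 and 6, against 6.55, 0.768, 1.17, 0.186 and 0.293 CPM in VTA libraries 1, 2, 4, 5 and 6. The ranges overlapped and VTA library 1 stood far above the rest of its region. Its log2 fold change was -0.44 ± 0.81 (SE; adjusted p = 0.705 with edgeR), and 1.13 without VTA library 1 (adjusted p = 0.265). Aldh1a2 is known from the meninges, and VTA library 1 also held the most of 2 further marker lists. Its 10 endothelial markers summed to 102 CPM, against 2.17 to 15.5 CPM in SNpc libraries and 4.08 to 13.4 CPM in the other VTA libraries. Its 12 meningeal fibroblast and pericyte markers summed to 70.3 CPM, against 4.29 to 17.0 CPM in SNpc libraries and 8.44 to 17.2 CPM in the other VTA libraries. Of those tested, 2 of 7 and 3 of 10 were higher in VTA, against 20.4% of all genes tested. The part of these markers' cells in the Aldh1a2 value was not tested. Aldh1a3 had 0, 0, 29, 0 and 0 reads in SNpc libraries 1, 2, 3, 4 and 6, against 34, 65, 1, 19 and 5 reads in VTA libraries 1, 2, 4, 5 and 6, too few to be tested. The single SNpc library with reads lay inside the VTA range.

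The mitochondrial members that can oxidise acetaldehyde were not called. Aldh2 (chr5:121566027-121593824), the other DOPAL-oxidising enzyme, had 7.30, 8.30, 10.5, 10.1 and 10.1 CPM in SNpc libraries 1, 2, 3, 4 and 6, against 9.83, 8.86, 9.47, 10.5 and 9.77 CPM in VTA libraries 1, 2, 4, 5 and 6. The ranges overlapped almost wholly, at means of 9.27 ± 1.40 CPM in SNpc and 9.69 ± 0.610 CPM in VTA (SD over n = 5 libraries each), with a log2 fold change of -0.06 and a standard error of 0.19 (edgeR adjusted p = 0.816). Relative to Aldh1a1, Aldh2 was lower in SNpc, the mean log2 ratio being -8.26 ± 0.39 in SNpc and -7.46 ± 0.10 in VTA (SD over n = 5 libraries each; difference -0.80, exact permutation p = 0.00794, adjusted p = 0.0139). Relative to the dopaminergic mean, it was lower in SNpc by 0.88 on the log2 scale (adjusted p = 0.0139, exact permutation). Aldh1b1 had 0.892 to 1.75 CPM in SNpc and 0.231 to 2.32 CPM in VTA, with a log2 fold change of -0.19 and a standard error of 0.60 (edgeR adjusted p = 0.834). VTA library 1 was its lowest library, and the SNpc values lay inside the VTA range.

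Aldh5a1 (chr13:24907579-24937661), succinate semialdehyde dehydrogenase, which completes the breakdown of GABA, had 150.1, 142, 139, 165 and 153 CPM in SNpc libraries 1, 2, 3, 4 and 6, against 131, 129.8, 117, 152 and 139.5 CPM in VTA libraries 1, 2, 4, 5 and 6. The ranges overlapped, with VTA libraries 5 and 6 above the lowest SNpc library. The log2 fold change was 0.16 ± 0.09 (SE; adjusted p = 0.183 with edgeR). When the trend of expression with transcript length and GC content was removed per library, it became 0.43 (adjusted p = 0.00153): genes in the 20% with the longest transcripts, which includes Aldh5a1 at 5647 bases, had a median of -0.48 on the same scale, and those in the shortest 20% 0.34. The count of Aldh5a1 is also uncertain, since the antisense gene 4932702P03Rik, which overlaps its exons by 796 bases in the annotation used here, had 93.9% to 95.5% of the Aldh5a1 count in every library. Without strand, reads lying within the overlapping bases cannot be told apart. In that annotation, 556 of the 5548 windows of 100 bases in Aldh5a1 were shared with antisense genes, so most of its transcript was not shared. Why the counts of the pair were nearly equal was not tested. The counts of a further antisense transcript, 9330162012Rik, and of Gm42879 over Aldh2 were not analysed here. The log2 ratio of Aldh5a1 to Abat, the transaminase one step earlier, differed by 0.01 between the regions (exact permutation p = 0.913).

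Of the remaining members, Aldh9a1 (chr1:167349991-167368532) is the carnitine pathway enzyme that also oxidises gamma-aminobutyraldehyde. It had 19.9, 15.6, 17.0, 17.1 and 15.6 CPM in SNpc libraries 1, 2, 3, 4 and 6, against 20.2, 20.4, 21.5, 22.8 and 20.4 CPM in VTA libraries 1, 2, 4, 5 and 6. The regions did not overlap, with SNpc library 1 just under the lowest VTA library, yet the log2 fold change of -0.31 ± 0.14 (SE) missed the threshold (edgeR adjusted p = 0.0929). With all 12 columns as deposited, in which the identical columns count as separate samples, the adjusted p was 0.0316.

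Aldh7a1, which acts in lysine breakdown, had 25.9, 10.8, 18.5, 19.3 and 17.5 CPM in SNpc libraries 1, 2, 3, 4 and 6, against 13.2, 13.5, 14.5, 15.7 and 17.8 CPM in VTA libraries 1, 2, 4, 5 and 6. Both the highest and the lowest values were SNpc libraries, so the VTA range lay within that of SNpc. The log2 fold change was 0.30 ± 0.20 (SE; adjusted p = 0.255 with edgeR). Its exons overlap those of Phax, an RNA export factor on the opposite strand, by 300 bases, and 2.65% of its 100-base windows were shared. Phax was itself higher in SNpc by 0.32 (edgeR adjusted p = 0.0301), at 144% to 343% of the Aldh7a1 count. The part of Phax reads in the Aldh7a1 value was not tested. Aldh3a2 (chr11:61223417-61267464), the fatty aldehyde dehydrogenase, had 50.6 to 62.3 CPM in SNpc and 47.2 to 55.1 CPM in VTA, overlapping ranges with a log2 fold change of 0.14 and a standard error of 0.10 (edgeR adjusted p = 0.325).

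Levels of different members were compared as CPM per kb of transcript. Aldh1a1 reached 1270.1 ± 197 CPM per kb in SNpc and 759.7 ± 64.1 in VTA (SD over n = 5 libraries each), ranking 15 to 22 of 14797 genes in SNpc libraries and 18 to 33 in VTA libraries. Th ranked 10 to 14 in SNpc and 9 to 12 in VTA, and Slc6a3 12 to 16 in SNpc and 17 to 38 in VTA, so Aldh1a1 stood among the genes that define these neurons. Of the summed level per kb of all 10 members, Aldh1a1 made up 92.9% ± 0.541 in SNpc and 92.0% ± 0.772 in VTA (SD over n = 5 libraries each), a difference of 0.893 percentage points (exact permutation p = 0.0556, adjusted p = 0.0778). Without SNpc library 4 or without VTA library 1, that difference was 1.07 or 1.08 points and passed the threshold (adjusted p = 0.0444, exact permutation).

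In SNpc the order below Aldh1a1 was Aldh1a7 at 38.0 CPM per kb, Aldh5a1 at 26.5, Aldh3a2 at 18.3, Aldh9a1 at 6.01, Aldh7a1 at 4.45, Aldh2 at 2.40, Aldh1b1 at 0.611, Aldh1a2 at 0.584 and Aldh1a3 at 0.0264. The ranges of Aldh1a7 and Aldh5a1 overlapped, as did those of Aldh9a1 with Aldh7a1, Aldh7a1 with Aldh2, and Aldh1b1 with Aldh1a2. In VTA, Aldh1a7 came after 3 other members at 10.8 CPM per kb, below Aldh5a1 at 23.7 and Aldh3a2 at 16.6 and overlapping Aldh9a1 at 7.43, and was followed by Aldh7a1 at 3.61 and Aldh2 at 2.51. Aldh1a2 at 0.792, Aldh1b1 at 0.695 and Aldh1a3 at 0.101 CPM per kb overlapped with their neighbours in that order, Aldh2 included through VTA library 1. Per kb of coding sequence, Aldh5a1, whose transcript is mostly non-coding, stood above Aldh1a7 in SNpc as well, at 95.5 against 52.3 CPM per kb.

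**Figure D4:**
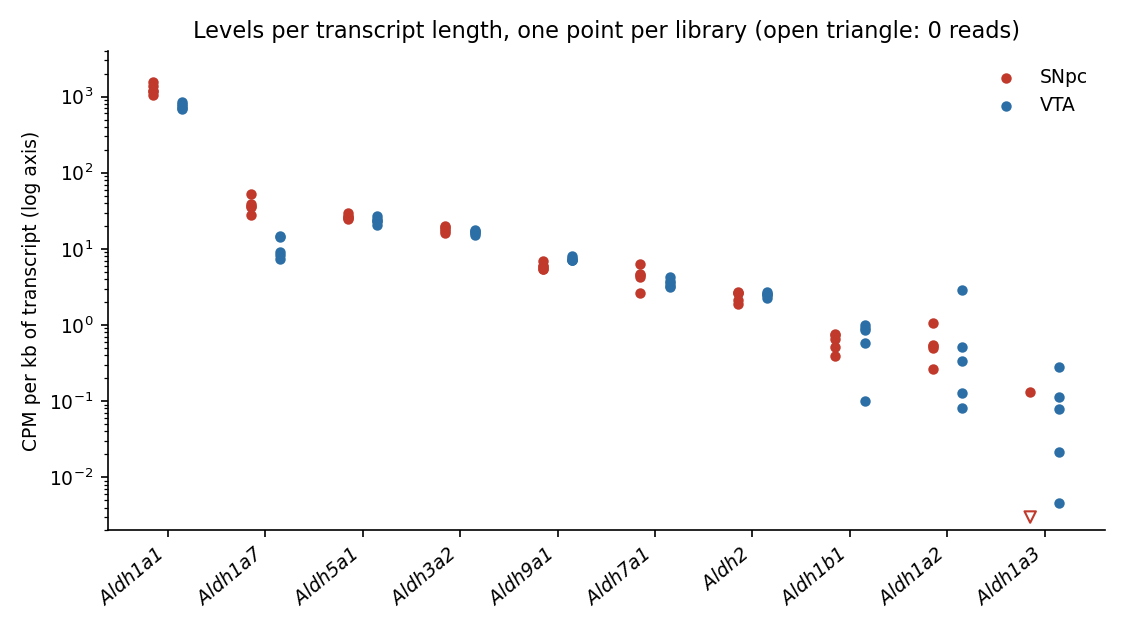
CPM per kb of transcript on a log axis for the 10 members in order of their SNpc mean, 1 point per library, SNpc in red on the left and VTA in blue on the right of each pair; open triangles stand for libraries with 0 reads. Aldh1a1 is far above all other members in both regions. The mean of Aldh1a7 is above those of Aldh5a1 and Aldh3a2 in SNpc (38.0 CPM per kb) and below both in VTA (10.8 CPM per kb). In SNpc the ranges of Aldh1a7 and Aldh5a1 overlap.

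The genes whose profile over the 10 libraries was most like that of Aldh1a1, by the root mean square difference of centred log2 CPM, were Fam184a (0.0809), Dgkq (0.0981) and Slitrk4 (0.0998), where the median over 9433 genes was 0.431. Those most like Aldh1a7 were Lix1 (0.186), D19Ertd737e (0.2998) and Nrip3 (0.306), with a median of 0.975. Lix1 had a log2 fold change of 1.81, next to 1.82 for Aldh1a7, with means of 339 CPM in SNpc and 96.7 CPM in VTA.

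Around the members, most genes called among those that make or remove the dopamine aldehyde were higher in SNpc, and Maob was lower. Of 11 tested genes, 5 were higher in SNpc and 1 was higher in VTA (54.5%, against 38.2% of all genes), with a median log2 fold change of 0.21 against -0.04 over all genes. Maob, which makes DOPAL and is known in the brain from astrocytes, fell to 10.9 ± 2.87 CPM in SNpc, against 27.7 ± 2.75 CPM in VTA (SD over n = 5 libraries each; log2 fold change -1.35, edgeR adjusted p = 2.797e-05). Of 12 astrocyte markers, 5 were also lower in SNpc, against 20.4% of all genes tested. With the glial markers as a covariate, the Maob value was -1.19. The part of astrocytes in the Maob value was not tested. Maoa, the form known from catecholamine neurons, had a log2 fold change of 0.14 (adjusted p = 0.316). The reductase genes called, of the other exit route, were higher in SNpc. Their log2 fold changes were 0.56 for Akr1a1, 0.48 for Akr1b3, 0.68 for Akr1b10 and 0.63 for the carbonyl reductase gene Cbr1. Reads of Akr1b10 may be split with close paralogs. Adh5, a formaldehyde-clearing enzyme, was also higher in SNpc (0.41). The reductase genes Akr7a5 (0.21), Akr1b8 (-0.89) and Cbr3 (-1.04) were not called (edgeR adjusted p = 0.460, 0.577 and 0.454). Akr1b8 and Cbr3 had at most 57 and 61 reads per library. With the length and GC trend removed, 1 gene of this list, Akr1a1, was still higher in SNpc, and with the glial covariate 3 were.

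Of the retinoic acid pathway, 20 of 27 genes were tested, and 3 were higher in SNpc and 6 higher in VTA. That was 45.0% in all, against 38.2% of all genes (17.8% higher in SNpc and 20.4% higher in VTA). The receptor genes called were all lower in SNpc, with log2 fold changes of -1.06 for Rara, -1.17 for Rarg and -0.72 for Rxra. Also lower were Dhrs3, a retinaldehyde reductase (-0.72), and Stra6, a retinol uptake receptor (-3.09 ± 0.80, SE). Stra6 had few reads, 1 to 233 per library, at means of 0.24 CPM in SNpc and 2.05 CPM in VTA. Higher in SNpc were Rbp4, the plasma retinol carrier (1.20), Fabp5, a fatty acid and retinoic acid binder (0.63), and the retinol dehydrogenase gene Rdh14 (0.54). Cyp26b1, which degrades retinoic acid, had means of 32.9 CPM in SNpc and 29.3 CPM in VTA and was not called (adjusted p = 0.448). With the length and GC trend removed, 1 gene was called higher in SNpc, Fabp5 was no longer called (adjusted p up to 0.363) and neither was Rxra, at -0.43 (adjusted p = 0.0743).

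Of GABA and polyamine metabolism, 15 of 16 genes were tested and 5 were higher in SNpc (33.3%, below the 38.2% of all genes). Among them were Sms, spermine synthase (0.68), the polyamine acetyltransferase genes Sat1 (0.76) and Sat2 (0.79), and Odc1, ornithine decarboxylase (0.27). With edgeR 0 were called higher in VTA, where 3 passed an unadjusted p under 0.05 and DESeq2 called 0, and 2 were called without SNpc library 4. Abat had means of 292 CPM in SNpc and 263 CPM in VTA (log2 fold change 0.15, edgeR adjusted p = 0.169). With the length and GC trend removed, Abat was called at 0.36 (adjusted p = 0.000844 with the library scale kept), and Sat1 and Sat2 were not called (adjusted p up to 0.223 and 0.119). In the list of lysine, carnitine and fatty aldehyde metabolism, 10 of 11 genes were tested. The share called in either direction was near the 38.2% of all genes. Of the 10 tested, 1 was higher in SNpc (Far1, 0.42) and 3 were higher in VTA. These 3 were the sphingosine phosphate lyase gene Sgpl1 (-1.25), whose product releases the fatty aldehyde that Aldh3a2 oxidises, the choline dehydrogenase gene Chdh (-1.62) and Far2 (-0.35), which with Far1 makes fatty alcohols. Far2 was not called without SNpc library 2 or without VTA library 5 (edgeR adjusted p up to 0.0592), nor with the glial covariate (0.102), with which Far1 was not called either (0.0550).

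Of the 10 other aldehyde dehydrogenase genes listed, 9 were tested, and 2 were called, both lower in SNpc (22.2%, against 38.2% of all genes called in either direction and 20.4% called higher in VTA). Aldh1l2, a mitochondrial folate enzyme, averaged 4.74 ± 1.85 CPM in SNpc and 13.1 ± 2.37 CPM in VTA (SD over n = 5 libraries each; log2 fold change -1.47, edgeR adjusted p = 0.000341). Aldh4a1, of proline breakdown, averaged 6.46 CPM in SNpc and 13.7 CPM in VTA (-1.09, adjusted p = 0.000847). No gene of this list was called higher in SNpc with edgeR or DESeq2, and 0 passed an unadjusted p under 0.05 in that direction. Aldh1l1, a marker of astrocytes, had a log2 fold change of -0.65 ± 0.65 (SE; adjusted p = 0.459 with edgeR). Aldh18a1 (0.17), Aldh6a1 (0.06) and Aldh3b2 (-0.51) were not called either (edgeR adjusted p = 0.381, 0.814 and 0.432). Aldh18a1 and Aldh6a1 averaged 22.3 and 22.2 CPM in SNpc and 19.8 and 21.3 CPM in VTA.

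**Figure D5:**
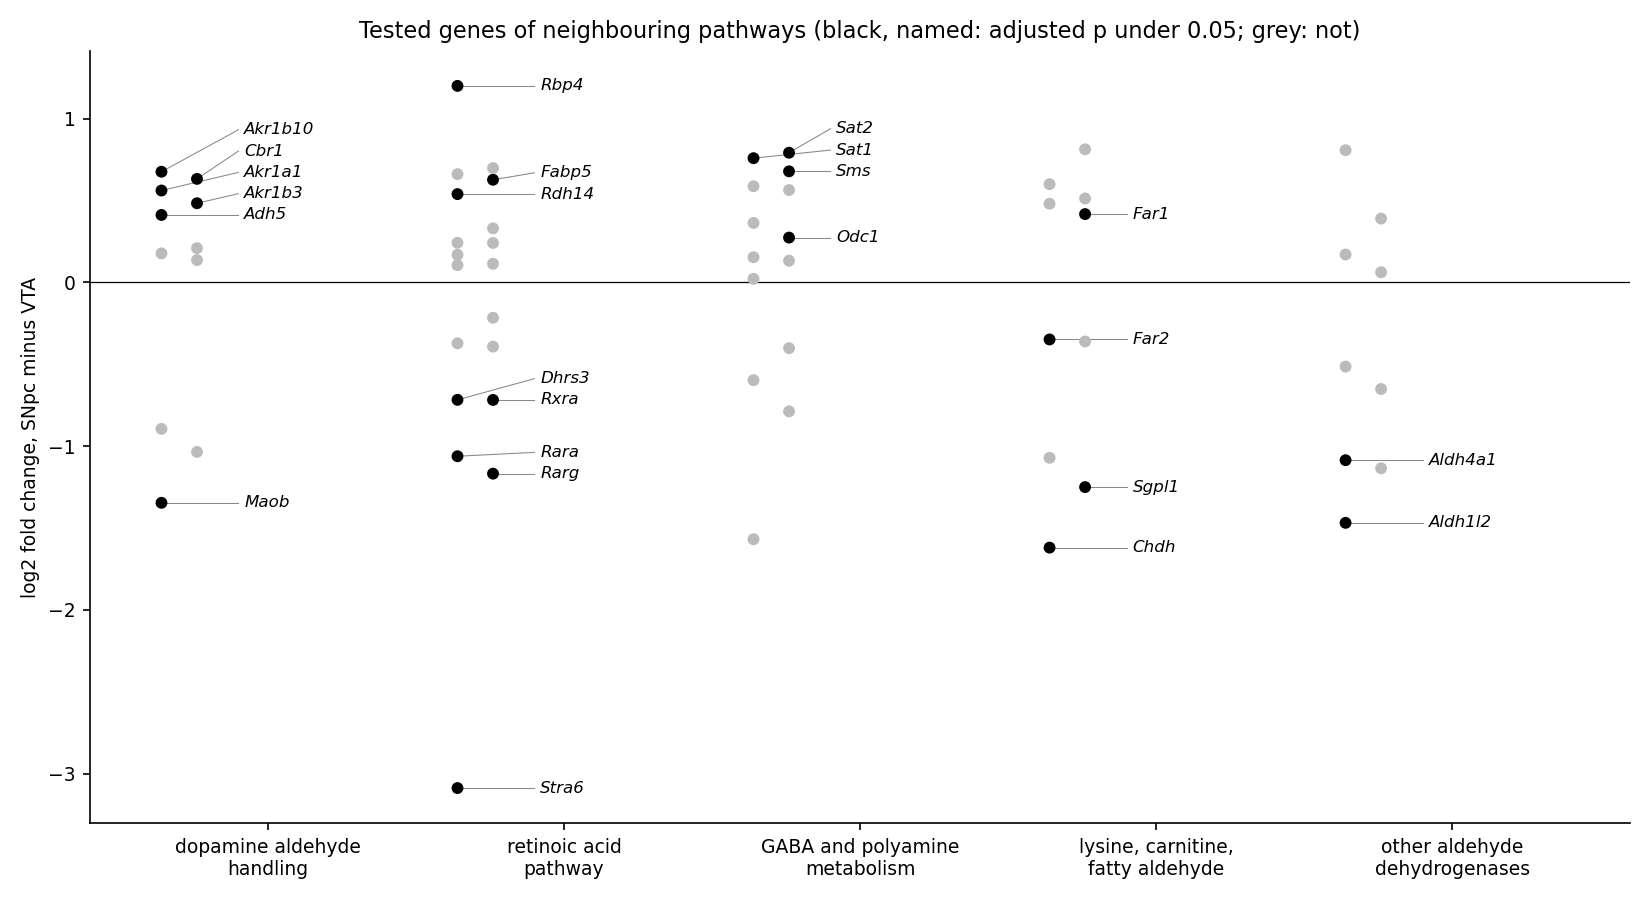
Log2 fold change, SNpc minus VTA, of tested genes in 5 lists of neighbouring pathways and enzymes. Named black points passed an adjusted p of 0.05 and grey points did not; 5 of 11 dopamine aldehyde genes lie above 0 in black with Maob below, and the black points of the retinoic acid pathway lie on both sides.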

How the data were processed

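The authors deposited raw read counts per gene, in whole numbers and without scaling. Reads were single-end, from cDNA amplified from 1 ng of RNA with a NuGEN Ovation kit, per the labels' protocols; such amplification does not mark strand. They were aligned with TopHat2 2.0.8 to mm10, per the submitters' processing notes. How reads were assigned to genes, including reads that fit several, is not given in the sources used here. No column lacked a sample. The 12 columns were reduced to 10 libraries as described, where differing columns had chi-square values per gene of 43.1 to 148.

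The whole table was tested with edgeR 4.0.16 in R 4.3.3 (filterByExpr by region, trimmed mean of M values (TMM) scaling, robust quasi-likelihood F test, no covariate, Benjamini-Hochberg adjustment, threshold 0.05). The procedure was tested on simulated data. Log2 fold changes are SNpc minus VTA. CPM values are TMM-scaled. Ratios used CPM plus 0.5 and two-sided exact permutation tests over libraries (scipy 1.17.1). Per-kb levels used the main GENCODE transcript, which 20945 genes had. RefSeq promoters were matched by symbol for 7 members.

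The members and gene lists were chosen with earlier results of these data known. Named genes are the members, the dopaminergic genes, the 4 smallest p and 2 highest levels of each list, and overlapping genes. The 3 genes most like Aldh1a1 and the 3 most like Aldh1a7 are also named. Other list genes, called or not, were named after their values were seen. Alternatives were DESeq2 1.42.0 and its size factors, library totals, no filter, all 12 columns, each library left out, a replicate block, a glial covariate, and removal of length and GC trends. The values of 2 list genes are not reported here. Protein sequences were not used here, and identities are of coding sequences.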

Additional observations from a re-analysis of the deposited data

Results flagged for a closer look

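Among 34 groups of 5 libraries examined, 2 held a library far from the others, and chance alone marks about 1 in 20 groups. Aldh1a2 was at 6.55 CPM in VTA library 1, against 0.186 to 1.17 CPM in the other VTA libraries, so that the gap to the next library was 0.846 of the whole range. Aldh1a3 was at 0.454 CPM in SNpc library 3, from 29 reads, against 0 reads in the other SNpc libraries.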

How the results depend on the processing

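Over 20 alternatives, including leaving out each library, the log2 fold change of Aldh1a1 ran from 0.51 to 0.86 (edgeR or DESeq2 adjusted p from 1.43e-10 to 0.00123) and that of Aldh1a7 from 1.54 to 1.98 (6.95e-19 to 0.000170), and both were called in each. Aldh2, Aldh1a2 and Aldh1b1 were uncalled in all 20 and changed sign in some. With the length and GC trend removed, Aldh5a1 was called higher in SNpc, at 0.43 with the library scale kept and 0.43 with it refitted. With 12 columns, Aldh9a1 was called at -0.30, making 1 member higher in VTA. Genes called higher in SNpc numbered 1 among the other aldehyde dehydrogenases without the filter. With the length and GC trend removed in either way they numbered 1 for dopamine aldehyde handling, 1 for retinoic acid and 3 for GABA and polyamine metabolism. With the glial covariate they numbered 3 for dopamine aldehyde handling and 0 for lysine, carnitine and fatty aldehyde metabolism. GABA and polyamine genes higher in VTA numbered 0 to 2 when libraries were left out, 2 without SNpc library 4 and 1 without VTA library 2. The Aldh1a1 share of the members differed by 0.594 to 1.08 percentage points when libraries were left out. The causes were not tested.

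Replicate numbers 1, 2, 4 and 6 occur in both regions, but same-numbered libraries did not deviate together (r from -0.0723 to 0.0443). Whether they share mice or a batch is not stated, and these values cannot settle it. A replicate block gave 1789 genes higher in SNpc and 2543 higher in VTA, against 2242 and 2677 in the same libraries without it, a fit added after seeing the data. It gave 1 GABA and polyamine gene higher in VTA and 0 genes of lysine, carnitine and fatty aldehyde metabolism higher in SNpc, where Far1 (adjusted p = 0.0926) and Far2 (0.164) were not called, Far2 also without the block in the same libraries. As mean differences within a number, log2 ratios were 1.15 for Aldh1a7 to Aldh1a1, 1.09 for Aldh1a7 to the dopaminergic mean, -0.88 for Aldh2 to Aldh1a1 and -0.95 for Aldh2 to the dopaminergic mean (adjusted p = 0.175 each by exact sign-flip permutation, whose smallest p is 0.125). Per kb of coding sequence, means over the 10 libraries were 1592 CPM per kb for Aldh1a1, 0.964 for Aldh1b1, 6.09 for Aldh2, 37.1 for Aldh3a2, 90.4 for Aldh5a1, 10.9 for Aldh7a1 and 12.3 for Aldh9a1. Aldh1a3 and Aldh1a2 are limited by depth, at 65 reads or fewer and 13 to 567 reads per library.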
